A study of Homo sapiens with 4 samples.

Results

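The RNAs encoded by the mitochondrial genome and the copies of these genes in the nuclear genome were examined in poly(A) RNA of PC3, a human cell line from prostate cancer. They were taken as the rows of the deposited count table whose gene name starts with MT- or is built on a mitochondrial gene name, such as MTCO1P12. The rule found 452 of 60544 rows. Of these, 37 were MT- genes, namely 13 protein-coding genes, 2 ribosomal RNA genes and 22 transfer RNA genes. The other 415 were nuclear copies, 404 of a pseudogene type and 11 of the protein-coding type, all 11 of them MTRNR2L genes. At least 1 count was found for 20 of the MT- genes and 44 of the copies, and 16 MT- genes and 14 copies passed the filter on low counts and were tested.

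The study compared METTL3 knockdown with control. METTL3 is the methyltransferase that places N6-methyladenosine on messenger RNA. The control libraries carried the label shNC and the others the label sh812, with 2 libraries of each, and both groups were PC3 cells grown in the same medium. A single knockdown label was used here, and sh812 was read as the knockdown because it is the label other than shNC. For METTL3 itself the table held 1682 and 1379 counts under shNC, against 269 and 313 under sh812. The log2 fold change was -2.42, with SE 0.11 and a Benjamini-Hochberg adjusted p of 5.54e-14 by the quasi-likelihood test of edgeR, and some METTL3 RNA was left in the sh812 cells.

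Human mitochondrial DNA is a small circle whose strands are each transcribed as long RNAs. These are cut, mostly at the tRNAs that lie between the other genes, into mRNAs and rRNAs, and most of the mRNAs receive short poly(A) tails. The mRNAs encode core subunits of respiratory chain complexes I, III and IV and of the ATP synthase, complex V, and all other subunits come from nuclear genes. Pieces of mitochondrial DNA have also been inserted into the chromosomes during evolution, and a recent insertion differs little from the gene it came from, so that a short read can fit both.

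Total counts ranged from 31450648 to 37041330 per library. The 5 epithelial markers were present in every library. Of these KRT18, EPCAM and CDH1 were called higher in sh812 (log2 fold changes 0.30, 0.45 and 0.57) and KRT8 and KRT19 were not called, and the list's median of 0.30 was close to that of the mitochondrial mRNAs given below. The markers CD3E, VWF, CDH5, HBA1, HBA2 and HBB had at most 6 counts per library, CD14 had 8 to 10 and PTPRC 12 to 32. PECAM1, in contrast, rose in sh812, from 23.8 and 23.7 counts per 1000000 counts of the scaled library (CPM) to 32.9 and 38.5 CPM (log2 fold change 0.59, edgeR adjusted p = 0.000222). Of 5 fibroblast markers, COL1A2 was called higher (0.50) and COL3A1 lower (-1.51), and their sum ranged from 48 to 56.6 CPM. The part of these shifts in the results below was not tested. The androgen-regulated genes KLK3 and KLK2 had 0 counts, as PC3 is known to lack them. The labels do not say whether the libraries of a group came from separate cultures, so the p-values measure only the spread between these libraries. Over all genes tested, 1822 of 16802 (10.8%) had an adjusted p under 0.05 in edgeR, 5.43% as higher and 5.42% as lower in sh812.

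MT- genes held a larger share of the counts in both sh812 libraries than in both shNC libraries. In order of replicate the shares were 1.34% and 1.23% for shNC, then 1.62% and 1.68% for sh812. The means were 1.28% ± 0.0813 and 1.65% ± 0.0484 (SD, n = 2), a ratio of 1.28. The groups did not overlap, and the two-sided exact permutation test over libraries gave p = 0.333, the smallest value that 2 against 2 libraries can give. Nuclear copies held 0.00647% and 0.0055% of the counts under shNC, against 0.00778% and 0.0079% under sh812, a ratio of 1.31 (exact permutation p = 0.333). In bulk RNA, more mitochondrial RNA per cell and more cells rich in it cannot be told apart.

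Of the 16 MT- genes tested, 14 rose and 0 fell in sh812 at an adjusted p under 0.05 in edgeR, against 5.43% of all genes tested that were called higher. At an unadjusted p under 0.05, 16 were higher and 0 lower, and DESeq2 and limma-voom also called 0 lower. All 16 had non-overlapping groups, against 53.6% of all genes tested. The changes were of modest size. The 13 mRNAs had log2 fold changes from 0.18 to 0.57 with a median of 0.32, beside a median of -0.0056 over all genes tested. The plot of levels by library shows these RNAs in the order of the mitochondrial genome.

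**Figure D1:**
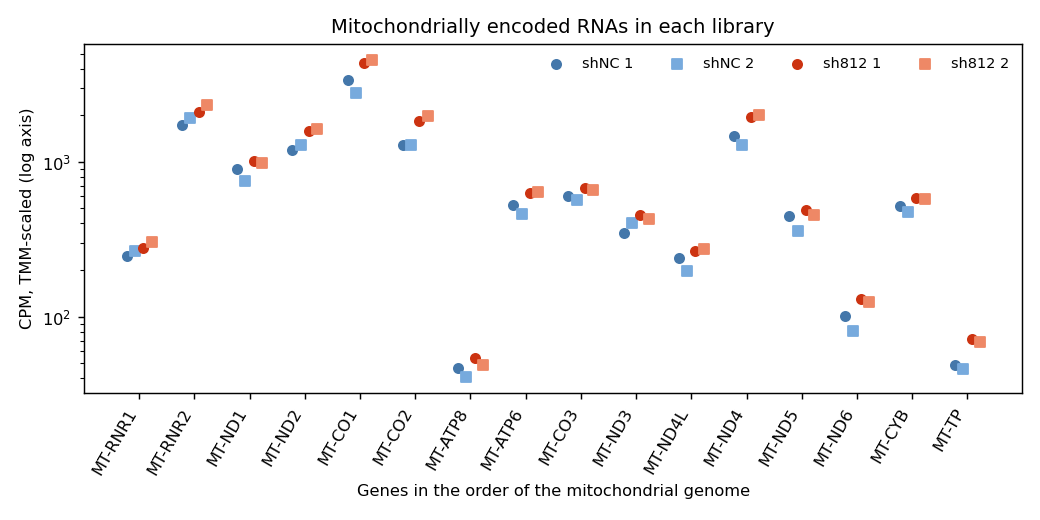
Level of each tested mitochondrial RNA in each library, as TMM-scaled counts per 1000000 (CPM) on a log axis, with genes in the order of the mitochondrial genome and 1 point per library. For all 16 RNAs the sh812 libraries lie above the shNC libraries, from the abundant MT-CO1 to the scarce MT-ATP8.

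The mRNAs of complex IV, cytochrome c oxidase, held the largest and the smallest of these changes. MT-CO1, the catalytic subunit, had 3386 and 2767 CPM under shNC, against 4370 and 4562 CPM under sh812. Its log2 fold change was 0.54 (SE 0.07, edgeR adjusted p = 7.21e-06). MT-CO2, which carries the copper site that receives electrons from cytochrome c, had 1284 and 1281 CPM in shNC and 1835 and 1977 CPM in sh812. Its log2 fold change of 0.57 (SE 0.06, edgeR adjusted p = 1.31e-07) was the highest of the 13. MT-CO3, the third core subunit of the same enzyme, had 603 and 571 CPM in shNC and 673 and 656 CPM in sh812, and its log2 fold change of 0.18 (SE 0.06, edgeR adjusted p = 0.0395) was the lowest. The groups did not overlap in any of these mRNAs, and the gap was wide for the first 2 and narrow for MT-CO3.

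Complex I, the NADH dehydrogenase, takes 7 mitochondrial subunits, and 6 of their mRNAs rose. MT-ND4, one of the proton-pumping subunits, had 1474 and 1289 CPM in shNC and 1941 and 2020 CPM in sh812, with a log2 fold change of 0.52 (SE 0.06, edgeR adjusted p = 2.49e-06). MT-ND6, the only mRNA encoded on the other strand, had 102 and 80.7 CPM in shNC and 130 and 125 CPM in sh812, with a log2 fold change of 0.48 (SE 0.08, edgeR adjusted p = 0.000277). MT-ND2, also a pumping subunit, had 1193 and 1278 CPM in shNC and 1576 and 1620 CPM in sh812, with a log2 fold change of 0.37 (SE 0.06, edgeR adjusted p = 8.37e-05). All 3 had both sh812 libraries clear of both shNC libraries.

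The other complex I mRNAs changed less. MT-ND4L rose by a log2 fold change of 0.32 and MT-ND1, which helps to form the quinone site, by 0.26 (adjusted p = 0.00464 and 0.0108 in edgeR). MT-ND3 had 345 and 401 CPM in shNC and 451 and 428 CPM in sh812, and rose by a log2 fold change of 0.24 (adjusted p = 0.0189 in edgeR). MT-ND5 had 447 and 356 CPM in shNC and 486 and 452 CPM in sh812, so that sh812 replicate 2 lay close to shNC replicate 1. Its log2 fold change of 0.22 (SE 0.07) had an adjusted p of 0.0531 in edgeR and was not called.

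In complex III, MT-CYB, the cytochrome b subunit and the only mitochondrial one, rose from 522 and 475 CPM to 586 and 573 CPM, a log2 fold change of 0.22 (adjusted p = 0.0186 in edgeR). In the ATP synthase, MT-ATP6, which forms the proton channel beside the rotor, rose from 526 and 461 CPM to 633 and 641 CPM, a log2 fold change of 0.37 (adjusted p = 0.000295 in edgeR). MT-ATP8, a small subunit of the same enzyme, had 46.8 and 40.5 CPM in shNC and 53.7 and 48.9 CPM in sh812. Its log2 fold change of 0.23 (SE 0.09) had an adjusted p of 0.0823 in edgeR.

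Both ribosomal RNAs of the mitochondrial ribosome were called higher. MT-RNR2, the large-subunit RNA, had 1739 and 1935 CPM in shNC and 2093 and 2346 CPM in sh812, with a log2 fold change of 0.27 (SE 0.06, edgeR adjusted p = 0.00542). MT-RNR1, the small-subunit RNA, had 247 and 264 CPM in shNC and 278 and 306 CPM in sh812, with a log2 fold change of 0.19 (SE 0.06, edgeR adjusted p = 0.0466), just inside the threshold. Within each group both rRNAs were higher in replicate 2, whereas MT-ND1, MT-ND5 and MT-ND6 were lower in replicate 2.

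Of the 22 tRNA genes, 17 had 0 counts in all libraries and only MT-TP, the proline tRNA gene, passed the filter. It had 1860 and 1457 counts in shNC and 2503 and 2457 counts in sh812. Its log2 fold change was 0.56 (SE 0.07, edgeR adjusted p = 1.90e-05). The other 4 tRNA genes with counts were MT-TN with 10 counts over the 4 libraries, MT-TC with 5, and MT-TF and MT-TY with 1 each. The minus strand held 4 of these 5 detected tRNA genes out of its 8, and the plus strand 1 out of 14. MT-TP lies on the minus strand of the mitochondrial chromosome from 15956 to 16023 and is the last annotated gene before the control region, where no gene is annotated. Its sequence in GENCODE 29 is shown because it is the only tRNA gene that passed the filter, and at 68 bases it is shorter than the 150-base reads.
MT-TP: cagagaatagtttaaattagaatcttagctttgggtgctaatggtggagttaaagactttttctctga
A full-length read counted in MT-TP therefore reaches beyond the gene. The labels describe libraries with a marked second strand, but whether counting used strand is not given in the sources used here. If strand was not used, reads of the opposite strand over MT-TP and MT-ND6 cannot be told apart from their own.

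Per kilobase, and averaged over the libraries, the levels ranked from MT-CO1 (2446 CPM per kb) and MT-CO2 (2330) through MT-ND2 (1360), MT-RNR2 (1301), MT-ND4 (1220) and MT-ND3 (1174) down to MT-ND5 (240), MT-ATP8 (229) and MT-ND6 (208). Several neighbours in this order changed places between libraries. In shNC replicate 2, MT-CO2 (1872 CPM per kb) stood above MT-CO1 (1795), MT-RNR2 (1241) above MT-ND2 (1227) and MT-ND3 (1158) above MT-ND4 (935.6). In sh812 replicate 2, MT-ND6 (237.7) stood above MT-ATP8 (236.2). These neighbours are not ordered beyond the spread of the libraries. Across the 13 mRNAs the Spearman correlation of the log2 fold change was 0.632 with the level per kb and 0.0769 with length. These are descriptions over 13 genes that share the same 4 libraries.

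Each mRNA was also set against the mitochondrial pool. As a share of the counts of the 13 mRNAs, MT-CO3 took 5.45% and 5.73% in shNC and 4.81% and 4.57% in sh812, and MT-CYB took 4.72% and 4.78% in shNC and 4.19% and 3.99% in sh812. MT-CO1 took 30.6% and 27.8% in shNC and 31.2% and 31.8% in sh812. The groups did not overlap for 10 of the 13 shares and overlapped for MT-ND2, MT-ND3 and MT-ND6, where 53.6% of all genes tested did not overlap in CPM. With the edgeR fit scaled to the sum of the 13 mRNAs, 0 of the 13 had an adjusted p under 0.05, and 0 had an unadjusted p under 0.05. The lowest adjusted p was 0.0921 for MT-CO3, with a log2 fold change of -0.25 (SE 0.14). Under this scaling 59.3% of all genes tested were called, 64 higher and 9907 lower, and the midpoint of the whole table stood at -0.44. The standard errors of the 13 mRNAs ran from 0.117 to 0.16, against 0.0555 to 0.0851 with TMM scaling. With errors this wide and 2 libraries a group, the fit cannot decide whether the shares shifted, and nothing is read from it.

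Ratios were also taken between neighbouring genes. MT-ATP8 and MT-ATP6 overlap and are known to stay on a single bicistronic mRNA, as are MT-ND4L and MT-ND4. The counts of MT-ATP8 were 8.90% and 8.79% of those of MT-ATP6 in shNC, and 8.48% and 7.63% in sh812. The counts of MT-ND4L were 16.1% and 15.2% of those of MT-ND4 in shNC, and 13.7% and 13.6% in sh812. In both RNAs the upstream, shorter reading frame held a smaller part in sh812, without overlap between groups. The counts of MT-ND6 were 22.7% of those of MT-ND5 in both shNC libraries, against 26.6% and 27.6% under sh812. How reads over both genes of a bicistronic RNA were assigned is not given in the sources used here, and 2 against 2 libraries cannot reach an exact permutation p under 0.333.

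The mRNAs differ in how their coding sequence ends. In 6 of the 13, the gene ends with 1 or 2 bases of an unfinished codon, which the poly(A) tail completes to a stop codon, and in 7 the codons are complete. The last 30 bases of 3 genes of each kind in GENCODE 29 are shown for this contrast, with the last codon or the unfinished bases in capitals.
MT-ND1: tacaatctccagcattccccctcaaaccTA
MT-ND4: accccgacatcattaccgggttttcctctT
MT-CO3: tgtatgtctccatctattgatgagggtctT
MT-CO2: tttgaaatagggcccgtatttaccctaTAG
MT-CO1: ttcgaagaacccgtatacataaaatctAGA
MT-ND6: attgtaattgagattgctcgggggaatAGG
The 6 mRNAs with an unfinished codon had log2 fold changes from 0.18 to 0.52 (median 0.25) and the 7 others from 0.22 to 0.57 (median 0.37), so the ranges overlapped.

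Both same-numbered pairs of libraries gave the same direction. In 13 of 13 mRNAs sh812 was higher than shNC in pair 1, with a median log2 ratio of 0.267, and in 13 of 13 in pair 2, with a median of 0.368. Between replicates of a group the spread was uneven. In shNC, 11 of 13 mRNAs were lower in replicate 2 than in replicate 1, with a median log2 ratio of -0.193, and MT-ND3 was the furthest in the other direction at 0.214. In sh812, 7 of 13 were lower in replicate 2, with a median of -0.0341. For MT-ND3 the difference between the shNC replicates was larger than its log2 ratio in pair 2, which was 0.095. Without sh812 replicate 1, and likewise without sh812 replicate 2, the count of MT- genes called higher fell from 14 to 7, namely MT-ND2, MT-CO1, MT-CO2, MT-ATP6, MT-ND4, MT-ND6 and MT-TP both times. Over all genes, calls fell to 1.86% and 2.52% in these 2 fits. Without shNC replicate 1 the count was again 14, of which 12 were shared, with MT-ATP8 and MT-ND5 called in place of MT-RNR1 and MT-ND3. Without shNC replicate 2 it was the same 14 genes.

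**Figure D2:**
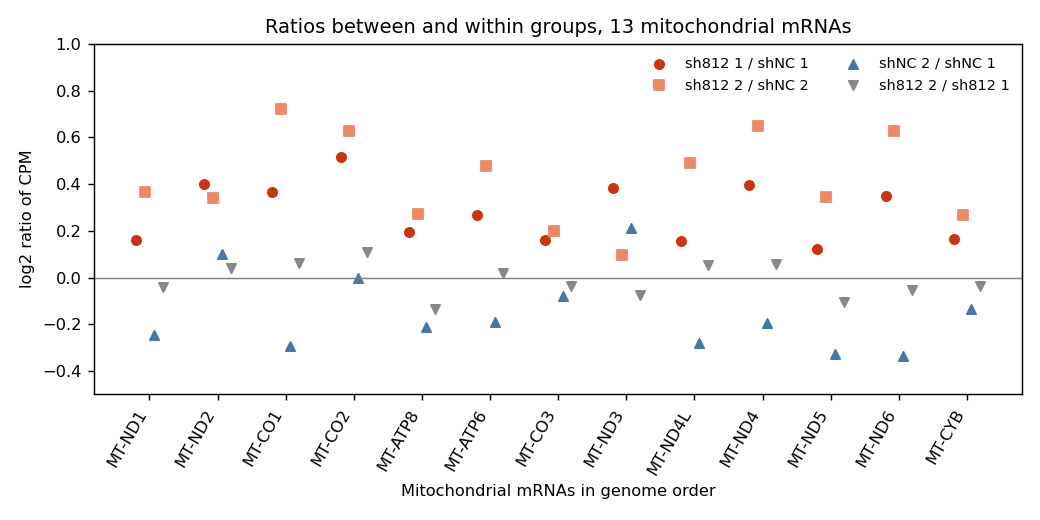
log2 ratios of CPM for the 13 mitochondrial mRNAs in genome order, with 2 points per gene for the same-numbered sh812 and shNC libraries and 2 for the replicates within a group. All ratios of sh812 to shNC lie above 0, while the ratio of shNC replicate 2 to replicate 1 lies below 0 in 11 of 13, down to -0.334 for MT-ND6.

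The changes were smaller when a trend on transcript length was removed. Short transcripts were higher in sh812 across the whole table, and the fitted trend at the lengths of the 13 mRNAs was 0.0794 for MT-ND5, the longest, to 0.242 for MT-ATP8, the shortest. With each library's trend removed, 7 of the 16 MT- genes were called higher and 0 lower. These were MT-CO1 (log2 fold change 0.435), MT-ND4 (0.406), MT-CO2 (0.404), MT-ND6 (0.287), MT-TP (0.242), MT-ND2 (0.235) and MT-RNR2 (0.178). The median of the 13 mRNAs became 0.14, and MT-ATP8 stood at -0.016. Between the shNC replicates the length trend had the opposite direction to the mitochondrial mRNAs. At their lengths it was 0.0726 to 0.111 higher in replicate 2, whereas 11 of the 13 mRNAs were lower there. How much of the difference between groups goes with length was not tested further.

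**Figure D3:**
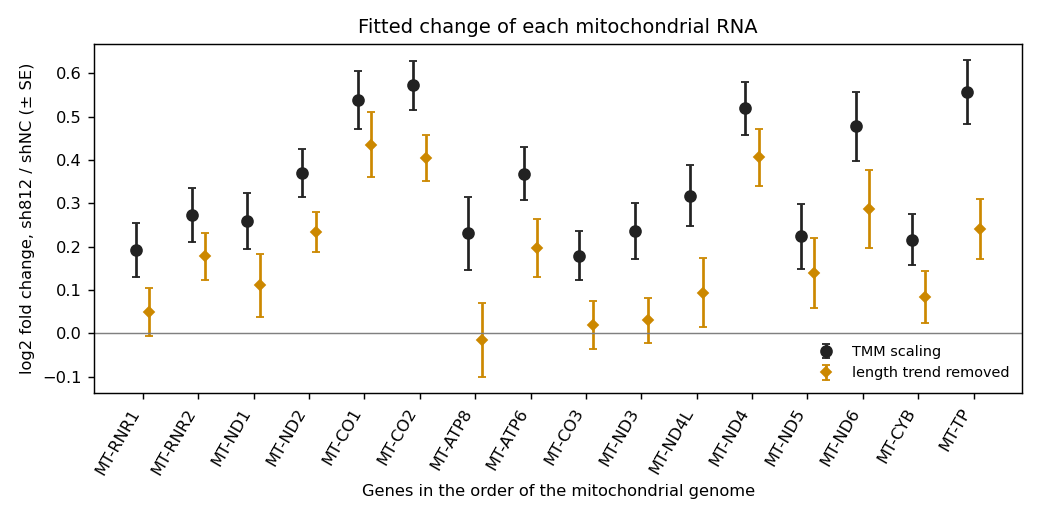
Fitted log2 fold change of sh812 over shNC with its standard error for the 16 tested mitochondrial RNAs, in genome order, with TMM scaling (circles) and once the length trend of each library was taken out (diamonds). All circles lie above 0, from 0.18 to 0.57, and with the trend removed MT-CO1, MT-CO2 and MT-ND4 remain near 0.4 while MT-ATP8, MT-CO3 and MT-ND3 lie near 0.

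The nuclear copies were read at far lower levels. Of the 415 copies, 371 had 0 counts in all 4 libraries and 30 more had counts but did not pass the filter. Of the 14 tested, 3 rose and 0 fell at an adjusted p under 0.05 in edgeR (5 and 0 at an unadjusted p under 0.05, and 0 lower in DESeq2 and limma-voom), against 5.43% of all genes called higher. All 3 lie in 1 insertion on chromosome 1, where MTND1P23, MTND2P28, MTCO1P12, MTCO2P12, MTATP6P1 and MTCO3P12 follow each other from 629062 to 634922 (GENCODE 29, GRCh38) in the order of the mitochondrial genome. Copies on chromosome 1 held 8553 counts over the 4 libraries, those on chromosome 5 held 612, and MTRNR2L12 on chromosome 3 and MTRNR2L8 on chromosome 11 held 240 and 144.

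Aligned to the genes they are named for, the copies of this insertion were nearly identical. MTATP6P1 differed from MT-ATP6 at 10 of 681 bases (98.53% identity), MTCO1P12 from MT-CO1 at 20 bases and 1 gap position (98.64%) and MTCO2P12 from MT-CO2 at 12 bases and 2 gap positions (97.95%). The most different 120-base stretch of MTATP6P1 and of MTCO2P12, each with its gene, is printed because only reads over such bases can be assigned to the copy or the gene. Capitals mark the bases that differ within the pair, and sequences and positions are from GENCODE 29.
MT-ATP6 (chrM:8599-8718, plus strand): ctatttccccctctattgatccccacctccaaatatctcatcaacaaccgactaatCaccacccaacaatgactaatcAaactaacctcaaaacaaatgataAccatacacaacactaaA
MTATP6P1 (chr1:633768-633887, plus strand): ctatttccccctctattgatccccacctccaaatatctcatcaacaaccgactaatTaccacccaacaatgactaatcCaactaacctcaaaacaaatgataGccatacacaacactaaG
MT-CO2 (chrM:7793-7912, plus strand): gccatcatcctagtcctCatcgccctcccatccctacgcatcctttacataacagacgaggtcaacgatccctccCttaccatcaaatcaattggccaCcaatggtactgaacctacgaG
MTCO2P12 (chr1:632964-633083, plus strand): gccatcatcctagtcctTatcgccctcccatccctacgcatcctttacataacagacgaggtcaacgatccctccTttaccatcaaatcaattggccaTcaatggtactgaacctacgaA
Of the 150-base stretches of MTCO1P12, 14.5% were identical to MT-CO1 throughout, and for MTND2P28 against MT-ND2 the figure was 15.7%. For MTATP6P1 and MTCO2P12 it was 0. The counts of MTCO1P12 and MTND2P28 are therefore uncertain, as a read within an identical stretch fits both the copy and the gene. In MTATP6P1 and MTCO2P12 every aligned 150-base stretch held a difference. Their counts still rest on few differing bases, and how such reads were assigned is not given in the sources used here.

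MTATP6P1 was by far the most abundant copy. It had 1566 and 1014 counts in shNC and 1707 and 1741 counts in sh812, with a log2 fold change of 0.40 (SE 0.10, edgeR adjusted p = 0.0071). MTCO1P12 had 227 and 138 counts in shNC and 291 and 281 in sh812, with a log2 fold change of 0.63 (SE 0.17, edgeR adjusted p = 0.0178). MTCO2P12 had 64 and 72 counts in shNC and 138 and 140 in sh812, with a log2 fold change of 0.99 (SE 0.25, edgeR adjusted p = 0.0114). The groups did not overlap in these 3. Without sh812 replicate 1, and likewise without sh812 replicate 2, none of the 3 was called in edgeR, with 5 and 3 copies at an unadjusted p under 0.05. DESeq2 called 1 copy, MTATP6P1, and with the length trend removed 1 was called, MTCO2P12. Without shNC replicate 1 MTCO2P12 was not called (adjusted p = 0.054 in edgeR), nor was MTCO1P12 without shNC replicate 2 (0.0835).

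The other copies of the insertion did not pass the threshold. MTND1P23 had 14 and 16 counts in shNC and 30 and 52 in sh812 (log2 fold change 1.40, SE 0.52, edgeR adjusted p = 0.0825). MTND2P28 had 190 and 218 counts in shNC and 236 and 248 in sh812 (log2 fold change 0.20, SE 0.17, edgeR adjusted p = 0.517). MTCO3P12 had 46 and 34 counts in shNC and 44 in each sh812 library. On the opposite strand, AL669831.3 overlaps these copies and had at most 4 counts in any library.

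Relative to the gene it is named for, the copies had low ratios. MTATP6P1 had 78.5 and 69.6 counts per 1000 counts of MT-ATP6 in shNC and 76.8 and 75.9 in sh812. The next highest among copies with at least 100 counts was MTND2P28, with 4.20 and 5.39 counts per 1000 of MT-ND2 in shNC and 4.27 and 4.28 in sh812. MTCO1P12, with a like identity to its gene, had 1.77 and 1.58 per 1000 in shNC and 1.90 and 1.72 in sh812. The groups overlapped in all 3. The ratio of MTCO2P12 was higher in both sh812 libraries, at 2.14 and 1.98 per 1000 counts of MT-CO2 against 1.31 and 1.78. Among 17 copies with at least 10 counts, the ratio was higher in sh812 without overlap for 2 and lower for 4, which is a smaller part than the 53.6% of all genes that did not overlap in CPM, and nothing is read from it.

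**Figure D4:**
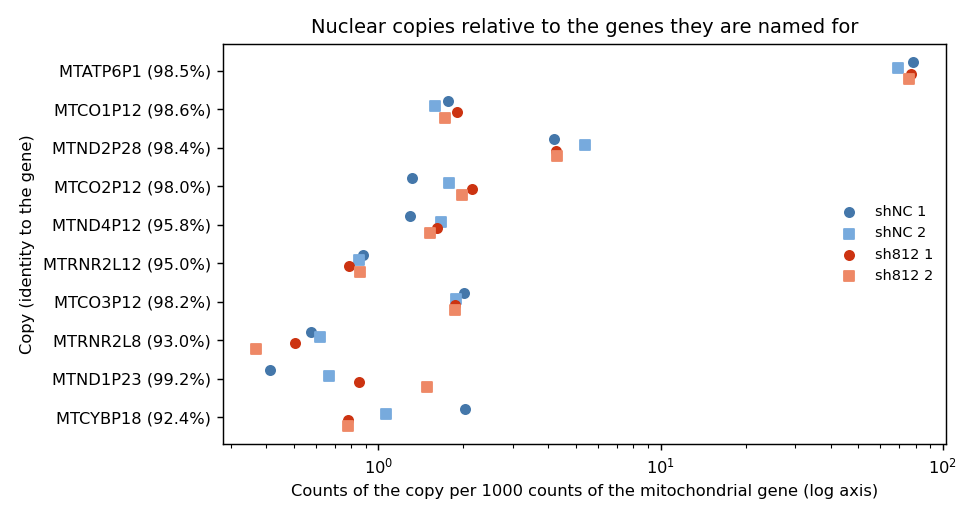
Counts of each of the 10 copies with the most counts per 1000 counts of the mitochondrial gene it is named for, on a log axis, with 1 point per library and the percent identity of copy and gene beside the name. MTATP6P1 stands apart at 69.6 to 78.5 per 1000, while the other 5 chromosome 1 copies shown lie between 0.411 and 5.39.

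A set of copies that are less like the mitochondrial genes lies on chromosome 5 inside an intron of PCBD2. MTND4P12, MTCYBP18, MTND6P4 and MTND4LP30 are the tested ones among them, and their identity to the mitochondrial gene ran from 92.44% to 95.78%. MTND4P12 had 72 and 68 counts in shNC and 110 in each sh812 library, with a log2 fold change of 0.62 (SE 0.26, edgeR adjusted p = 0.131). MTCYBP18 had 40 counts in shNC replicate 1 and 16 in each other library. PCBD2 itself had 165 and 172 counts in shNC and 135 and 146 in sh812 (log2 fold change -0.30, adjusted p = 0.372 in edgeR).

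The MTRNR2L genes are copies of the large ribosomal RNA, most of them annotated as protein-coding for peptides like humanin, and some, such as MTRNR2L2, as pseudogenes. MTRNR2L12 had 58 and 52 counts in shNC and 58 and 72 in sh812, with a log2 fold change of 0.21 (SE 0.32, edgeR adjusted p = 0.754). MTRNR2L8 had 38 in both shNC libraries, and 37 and 31 in sh812, with a log2 fold change of -0.19 (SE 0.42, edgeR adjusted p = 0.833). Both were under 1 count per 1000 counts of MT-RNR2 in every library, and neither passed the test. MTRNR2L12 was 95.04% identical to MT-RNR2 over 1048 bases, and its most different stretch, shown for contrast with the chromosome 1 copies, held 13 differences in 120 bases.
MT-RNR2 (chrM:2242-2361, plus strand): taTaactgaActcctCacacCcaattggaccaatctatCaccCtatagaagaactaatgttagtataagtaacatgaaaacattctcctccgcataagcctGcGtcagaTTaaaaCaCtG
MTRNR2L12 (chr3:96617545-96617664, minus strand): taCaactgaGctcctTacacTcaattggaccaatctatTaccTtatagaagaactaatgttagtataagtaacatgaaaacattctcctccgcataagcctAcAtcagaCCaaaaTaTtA

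Counts in the copies were mostly even numbers. Among values from 10 to 400, 44 of 50 (88.0%) were even in the copies, against 62.3% over all genes in the same range. The sources used here do not say whether each mate of a read pair was counted, and if so the number of fragments behind a copy is lower than its count.

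The nuclear genes that serve the mitochondrial genome were taken from 10 lists written from general knowledge, with earlier results of these data known. Of 138 genes tested, 32 rose and 3 fell, which is 25.4% against 10.8% of all genes tested (5.43% higher, 5.42% lower). With the length trend removed 24 were called higher, and with library size alone 19. These calls changed when 1 library was left out. They were fewest without sh812 replicate 1 or without sh812 replicate 2, and most without shNC replicate 2. The calls over all genes tested changed in the same way, so the counts from these fits are not compared.

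Factors that act on mitochondrial RNA are set beside the 10.8% of all genes tested that were called. In the list of mitochondrial transcription factors and their regulators, 1 of 9 (11.1%) rose, MTERF3, a regulator of mitochondrial transcription and ribosome assembly (log2 fold change 0.32, adjusted p = 0.00319 in edgeR). The RNA polymerase POLRMT and the DNA-binding factor TFAM were not called. In RNA processing and decay, 4 of 22 rose and 1 fell (22.7% called). SLIRP, which stabilizes mitochondrial mRNAs together with LRPPRC, had 1884 and 1670 counts in shNC and 2311 and 2242 in sh812, a log2 fold change of 0.33 (adjusted p = 0.00576 in edgeR, and 0.108 with the length trend removed). TBRG4 and FASTKD2, of a family of mitochondrial RNA-binding proteins, rose by 0.25 and 0.24, and SUPV3L1, the helicase of the mitochondrial RNA degradation complex, by 0.20 on the log2 scale. PTCD2 fell, with a log2 fold change of -0.42 (adjusted p = 0.0367 in edgeR).

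The next lists had call rates of 9.52% to 22.2%, against the 10.8% over all genes tested. In mitochondrial RNA modification, 2 of 21 rose, the pseudouridine synthase PUS1 (log2 fold change 0.35) and the cytosine methyltransferase NSUN2 (0.21). In replication and maintenance of mitochondrial DNA, 2 of 17 rose, the helicase TWNK (0.31) and the single-strand binding protein SSBP1 (0.20), and the thymidine kinase TK2 fell (-0.47, adjusted p = 0.0444 in edgeR), a call held in 7 of 14 alternatives and lost in DESeq2 (0.177), limma-voom (0.0574) and 5 others. In translation and membrane insertion, 2 of 16 rose, the elongation factor TUFM (0.21) and the insertase OXA1L (0.26). Among biogenesis regulators, MYC rose (0.40) and GABPA fell (-0.25), and 7 of 9 were not called. Without sh812 replicate 1 the list medians were 0.106 for RNA modification, 0.108 for translation, 0.123 for processing and 0.151 for transcription. That for DNA maintenance was -0.0217. Without sh812 replicate 2 the medians were, in the same order, 0.101, 0.12, 0.132, 0.14 and 0.146. These lists lost most of their calls in both fits, as did the whole table.

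Nuclear partners of the mitochondrial subunits were counted in the same way. In complex IV 7 of 11 rose (63.6% called, against 10.8% of all genes tested), with a list median of 0.23. COX7C had 9769 and 9620 counts in shNC and 15647 and 16119 in sh812, a log2 fold change of 0.67 (SE 0.07, edgeR adjusted p = 1.47e-07), and COX7B rose by 0.37 on the log2 scale. In complex V 9 of 17 rose (52.9% called), with a list median of 0.20, among them ATP5F1D (log2 fold change 0.40) and the catalytic subunit ATP5F1B (0.20). In complex III 3 of 9 rose, namely UQCRH (0.34), UQCRFS1 and UQCRC1, and among the core nuclear subunits of complex I 1 of 7, NDUFV1 (0.32). No gene of these 4 lists fell. The difference between the lists was not tested. With the length trend removed the counts were 4 of 11 in complex IV, 5 of 17 in complex V with 1 lower, 3 of 9 in complex III and 1 of 7 in complex I. When 1 library was dropped, the complex IV median stayed above 0, from 0.142 (shNC replicate 1 dropped) to 0.336 (shNC replicate 2 dropped). The complex V median ran from 0.12 to 0.284 in the same fits. Calls in both lists depended on the dropped library, as did those over all genes, and are not compared.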

How the data were processed

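Poly(A) RNA was sequenced as paired 150-base reads in 4 libraries of PC3 cells, grouped by their titles. The authors deposited raw counts per gene, whole numbers with a different total in each library. The submitters' processing notes name fastp, STAR 2.7.1a, featureCounts, DESeq2 and the build hg38, with no role. The strand setting, the treatment of reads that fit several places and the annotation release are not given in the sources used here.

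The test was edgeR's quasi-likelihood F test (version 4.0.16, R 4.3.3) on all 4 libraries after filterByExpr and TMM scaling. Benjamini-Hochberg adjustment covered the 16802 genes tested, and a gene was called under 0.05. Fitted fold changes used a prior count of 0.125. Levels are counts per 1000000 of the TMM-scaled library (CPM). Alternatives were RLE, upper quartile and library-size scaling, scaling without the mitochondrial rows, other filters, a replicate block, a lowess length offset of span 0.3, DESeq2 1.42.0, limma-voom (limma 3.58.1) and each library left out. Positions and sequences are from GENCODE 29, where all 452 rows matched, and copies were aligned locally to genes.

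Named were METTL3, all tested MT- genes, tested copies (at most the 12 most abundant, and any called) and, of each list, called genes up to the 8 with the smallest p. Any other gene was named with its values known. The members and lists were chosen with earlier results of these data known.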

Additional observations from a re-analysis of the deposited data

How the results depend on the processing

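With the length trend removed, 7 MT- genes and 1 copy were called higher, the median of the 13 mRNAs was 0.14, and MT-ATP8 (-0.0156) and MTCO3P12 (-0.0697) changed sign. DESeq2 called 1 copy higher and 1 list gene lower. Library size alone called 19 list genes higher and 5 lower, moved the median of all genes to -0.0503, and made 29.7% of all called genes higher, against 50.1% with TMM. It called 11 MT- genes. It left MT-RNR1, MT-CO3 and MT-CYB uncalled. For all of these the cause was not tested. Restricting the copy ratios to copies with at least 100 counts left 2 lower in sh812 without overlap, against 4.

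Leaving out 1 library leaves a group with 1 sample, which is assumed to vary like the others. MT- genes called higher then ran from 7 to 14, copies called higher from 0 to 2, list genes called higher from 2 to 52 and lower from 0 to 5. The median of the 13 mRNAs ran from 0.281 to 0.397, and METTL3 from -2.52 to -2.33. The share in MT- genes was higher in sh812 by 0.308 to 0.423 percentage points. MTND2P28 ran from -0.0155 without shNC replicate 1 to 0.451, and MTND6P4 from -0.317 without shNC replicate 1 to 2.24.

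The replicate numbers are shared by both groups, with no word in the labels on a shared batch. The correlation of replicate deviations across genes was 0.0278. With the replicate block 16 MT- genes were called higher, MT-ATP8 (adjusted p = 0.0498) and MT-ND5 (0.0119) included, as were 3 copies and 35 list genes, and METTL3 stood at -2.42. MT-CO1, MT-CO2, MT-ND2, MT-ND4, MT-ND6 and MT-TP were past the threshold in each of their 14 alternatives.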
